A study of Mus musculus with 6 samples.

Results

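Lgr5, Ascl2, Axin2, Smoc2, Rnf43, Znrf3, Nkd1, Sox9, Myc and Cd44, genes that mark intestinal stem cells or are switched on by Wnt signaling, were followed in mouse colon tissue carrying colitis-associated tumors. The genes were chosen by symbol, with every gene probe that carried one of these names, and gave 22 of the 56605 gene probes on the array. All 10 genes had a probe well above background on all 6 arrays and were among the 19087 genes tested, so none entered the test through 1 group alone. The 3 RG@M-γ-CD samples came from male C57BL/6 mice with tumors induced by azoxymethane (AOM, 10 μg/g), a carcinogen, and dextran sodium sulfate (DSS, 2%) in the drinking water, an agent that injures the colon lining. These mice received RG@M-γ-CD by mouth, regorafenib held in a mannose-modified γ-cyclodextrin (30 μg/g of complex with 10 μg/g of regorafenib), and regorafenib is an inhibitor of several kinases. The 3 PBS samples came from mice with tumors induced by the same AOM and DSS schedule, which received PBS by mouth, so that no array measured a colon without tumors. Treatment ran for 21 days and was followed by 14 days of observation before the colons were taken.

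In the crypts of the colon, Wnt ligands bind Frizzled receptors together with LRP5 or LRP6, which stops the destruction complex of APC, AXIN and GSK3 from removing β-catenin. β-catenin then enters the nucleus and activates genes through TCF and LEF factors. R-spondins, which bind LGR receptors, raise the signal by keeping the ubiquitin ligases RNF43 and ZNRF3 from clearing Frizzled off the membrane. Several targets, such as Axin2, Nkd1, Rnf43 and Znrf3, feed back to dampen the pathway, and colon tumors, including those induced by AOM, often carry it in a permanently active form.

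The values of a gene rest on what its probe binds, so the first 30 of the 60 bases of the probe that represented each member are given 5′ to 3′ with the positions of the whole probe in the mouse build mm9, as the array files state them. The file places only part of the Znrf3 probe on the genome, on chromosome 11, and no position is given for it.
Lgr5, probe A_55_P2126192, chr10:114887403-114887462, minus strand: catgtaaatacgtagtgcttgtaaatagat
Ascl2, probe A_55_P2033725, chr7:150152734-150152793, minus strand: ggccagtgtgggaaccctgctgttgcaaag
Axin2, probe A_52_P54176, chr11:108811980-108812039, plus strand: ttctactttagactgtaaattatgcattat
Smoc2, probe A_55_P2002903, chr17:14541664-14541723, plus strand: gctcatgtcaatgctgtctacaaacgagta
Rnf43, probe A_51_P337101, chr11:87548944-87549003, plus strand: atgggtatttatatctgaaccagacagaaa
Znrf3, probe A_65_P09639: ttaacaaaccaacagacaaaaatctcttga
Nkd1, probe A_55_P1967736, chr8:91116160-91116219, plus strand: cactaatatttagccagccttcatgtagaa
Sox9, probe A_55_P2798454, chr11:112647560-112647619, plus strand: ttggggggtgagctttgattaattccccag
Myc, probe A_52_P108346, chr15:61821417-61821476, plus strand: aacagttgaaacacaaactcgaacagcttc
Cd44, probe A_55_P2912261, chr2:102652758-102652817, minus strand: atattaactctataaaataaggctgtccct
Lgr5, second probe A_66_P108922, chr10:114899782-114899841, minus strand: gcaccttttgctttccagagatttgtctta
The Lgr5 pair is shown because its 2 probes lie apart on chromosome 10 and, as described further on, did not follow each other.

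Each value is a log2 level, the log2 of the background-corrected intensity less that array's 75th percentile over gene probes, and levels of different probes are not compared. RG@M-γ-CD replicates 1, 2 and 3 are arrays 5, 6 and 7, and PBS replicates 1, 2 and 3 are arrays 8, 10 and 11. All 6 arrays came from 1 slide and 1 scan, with the RG@M-γ-CD arrays and PBS replicate 1 in slide row 1 and the other two PBS arrays in slide row 2, and the share of gene probes well above background ranged over the arrays from 49.6% to 55.1%. The deposited labels set the groups, whereas the clustered heat map of the study places arrays 6, 7 and 8 side by side and arrays 5, 10 and 11 side by side. Each comparison therefore comes in the direction of RG@M-γ-CD minus PBS as labelled. The heat map's grouping follows, taken as the first set of arrays minus the second, with no side called treated. Per the study's description of these arrays, each group held 3 independent mice. The heat map was clustered from values of these same arrays, so the p-values under its grouping are not independent of how the sets were formed and are given as a description. The tissue is a mixture of cells, so that fewer cells of a type and less RNA per cell cannot be told apart.

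By the labels 9 of the 10 members had a lower mean in the RG@M-γ-CD samples than in the PBS samples, and Ascl2 was the exception. None of the differences passed the test (0 of 10 members at an adjusted p of 0.05 in limma, against 0% of all genes). At an unadjusted p of 0.05, 0 of 10 members were called, against 2.2% of all genes. A lower mean in RG@M-γ-CD was found for 52.8% of all genes, and the median log2 difference was -0.289 over the members and -0.01 over all genes. In no member did all 3 RG@M-γ-CD samples lie on one side of all 3 PBS samples, a pattern seen in 4.57% of all genes. In each member the difference between the groups was smaller than the SD among the RG@M-γ-CD samples.

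Lgr5 encodes an R-spondin receptor and marks the cycling stem cells of the crypt base. Its log2 level was 3.80, 1.25 and 2.06 in RG@M-γ-CD replicates 1, 2 and 3 and 2.90, 2.94 and 3.38 in PBS replicates 1, 2 and 3. RG@M-γ-CD replicate 1 was above every PBS sample and replicates 2 and 3 were below every PBS sample. The mean was 2.37 ± 1.30 (SD, n = 3) against 3.07 ± 0.26 (SD, n = 3), a log2 difference of -0.70 (standard error 0.62, 95% interval -2.19 to 0.79, adjusted p = 1 from limma). From its lowest to its highest array Lgr5 spanned 5.86-fold.

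Smoc2, which encodes a secreted matricellular protein found in Lgr5-positive stem cells, followed a similar order. Its log2 level was 6.34, 4.49 and 5.17 in the RG@M-γ-CD samples and 5.22, 5.49 and 5.87 in the PBS samples. The groups overlapped only through RG@M-γ-CD replicate 1, the highest of the 6 arrays. The log2 difference was -0.20 (standard error 0.47, 95% interval -1.32 to 0.93).

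Ascl2, a transcription factor that controls the stem cell program of the crypt, behaved differently in RG@M-γ-CD replicate 3. Its log2 level was 5.20, 3.62 and 5.01 in the RG@M-γ-CD samples and 4.62, 4.32 and 4.07 in the PBS samples. Replicates 1 and 3 of RG@M-γ-CD thus lay above all PBS samples and replicate 2 lay below them. The log2 difference was 0.27 (standard error 0.43, 95% interval -0.77 to 1.31).

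**Figure D1:**
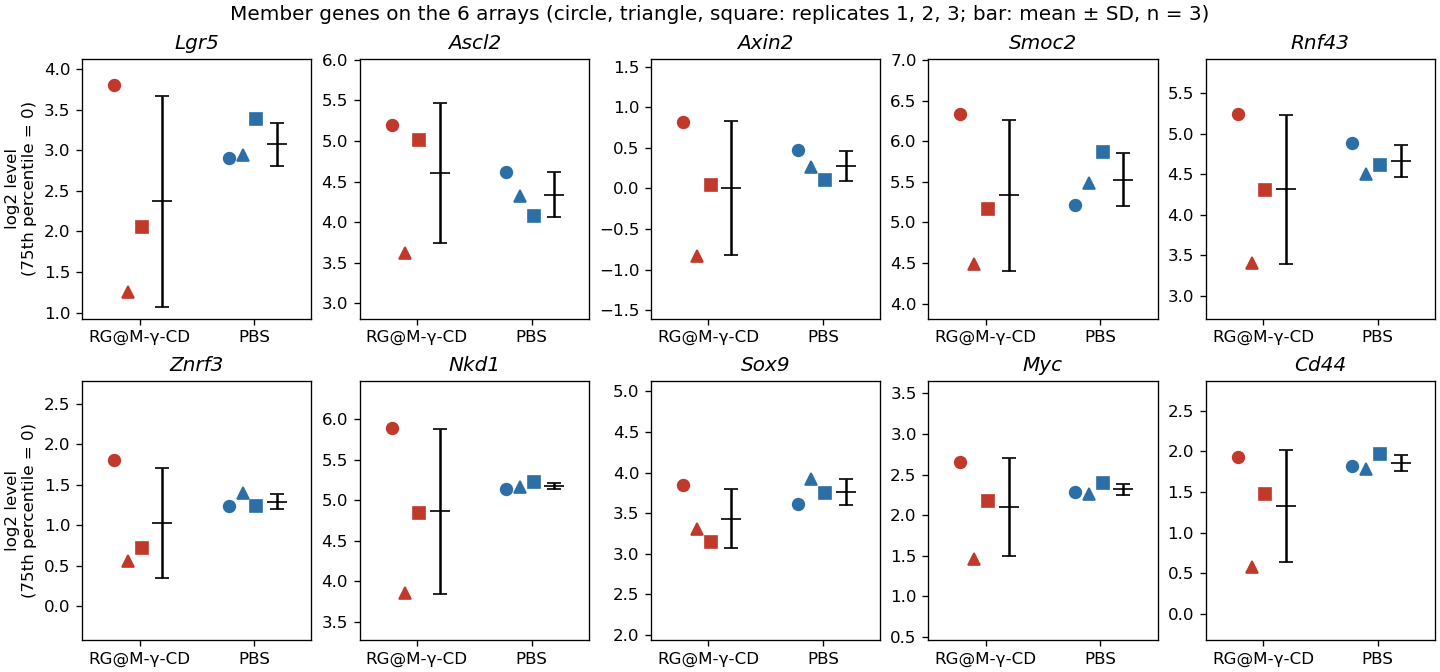
Log2 level of each member on the 6 arrays (vertical axis, 0 is the 75th percentile of the array's gene probes, every panel spanning the same number of log2 units), by group, with circles, triangles and squares for replicates 1, 2 and 3 and black bars for the mean ± SD (n = 3). RG@M-γ-CD replicate 1 is the highest array in 8 of the 10 panels and replicate 2 the lowest in 9, while the PBS samples lie close together.

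Axin2, Nkd1, Rnf43 and Znrf3 encode inhibitors of the pathway that the pathway itself induces. Axin2, a scaffold of the destruction complex and a widely used readout of Wnt activity, had log2 levels of 0.82, -0.83 and 0.04 in the RG@M-γ-CD samples and 0.47, 0.26 and 0.10 in the PBS samples. Nkd1, which acts on Dishevelled, had log2 levels of 5.89, 3.86 and 4.84 against 5.14, 5.16 and 5.22. In both genes RG@M-γ-CD replicate 1 was above, and replicates 2 and 3 below, every PBS sample, and the 3 PBS values of Nkd1 had an SD of 0.04.

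Rnf43, a ubiquitin ligase for Frizzled receptors, had log2 levels of 5.24, 3.40 and 4.30 in the RG@M-γ-CD samples and 4.88, 4.50 and 4.61 in the PBS samples. Znrf3, its close relative with the same role, had log2 levels of 1.81, 0.56 and 0.72 against 1.24, 1.40 and 1.24. Both showed the order of Axin2 and Nkd1, with 1 RG@M-γ-CD sample above and the other two below the PBS range. The log2 differences of these feedback genes were -0.27 for Axin2 (standard error 0.41), -0.31 for Nkd1 (standard error 0.48), -0.35 for Rnf43 (standard error 0.45) and -0.26 for Znrf3 (standard error 0.34), each with an adjusted p of 1 from limma.

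Myc, a transcription factor that drives growth and cell division, had log2 levels of 2.66, 1.46 and 2.17 in the RG@M-γ-CD samples and 2.29, 2.26 and 2.40 in the PBS samples, again 1 above and 2 below the PBS range. Cd44, an adhesion receptor for hyaluronan that is also made by immune and stromal cells, had log2 levels of 1.93, 0.58 and 1.48 against 1.82, 1.79 and 1.97. Its replicate 1 lay within the PBS range instead of above it, and its log2 difference was -0.53 (standard error 0.34, 95% interval -1.36 to 0.29). Sox9, a transcription factor of crypt progenitors and Paneth cells, had log2 levels of 3.85, 3.30 and 3.15 against 3.61, 3.92 and 3.75. Sox9 had the smallest span of the members, 1.71-fold between its lowest and highest arrays, and its lowest array was RG@M-γ-CD replicate 3. The log2 difference was -0.33 for Sox9 (standard error 0.23) and -0.22 for Myc (standard error 0.31).

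The spread among the RG@M-γ-CD samples had a similar shape in most members. RG@M-γ-CD replicate 1 was the highest and replicate 2 the lowest of the 6 arrays for 8 of 10 members, with Sox9 and Cd44 as the exceptions, and for 20.4% of all genes. The SD was larger among the RG@M-γ-CD samples than among the PBS samples for 10 of 10 members and for 66.2% of all genes. Among the RG@M-γ-CD samples the SD of the members ran from 0.37 to 1.30 (median 0.84), and among the PBS samples from 0.04 to 0.33 (median 0.17). Over all genes tested the median SD was 0.30 among the RG@M-γ-CD samples and 0.21 among the PBS samples. The median span between the lowest and the highest array was 1.61 on the log2 scale for the members and 0.72 for all genes.

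Across the 6 arrays, which differ in group, the 45 pairs of members had a median Pearson correlation of 0.888. The lowest was 0.101, for Ascl2 with Sox9. Lgr5 correlated at 0.960 with Nkd1, at 0.953 with Smoc2 and at 0.517 with Ascl2. Over all genes tested the median correlation with Lgr5 was 0.256. The 5 genes most like Lgr5 over the 6 arrays were Phlda1 (r = 0.999), Rab4b (0.997), Ambra1 (0.997), Ccdc120 (0.997) and Arhgef2 (0.995). Phlda1 had log2 levels of 6.27, 4.59 and 5.04 in the RG@M-γ-CD samples and 5.69, 5.70 and 5.97 in the PBS samples, in the same order as Lgr5. These values describe 6 arrays of 1 slide and carry no test.

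Most other probes of the members followed the probe used. The other tested probes of Axin2, Cd44, Myc, Smoc2, Sox9 and Znrf3 correlated with it at 0.861 to 0.978 over the 6 arrays. The second Lgr5 probe, A_66_P108922, designed to an Ensembl transcript and well above background on all 6 arrays, had log2 levels of -0.63, -0.16 and -1.73 in the RG@M-γ-CD samples and 0.73, -1.10 and -0.30 in the PBS samples. It correlated at 0.104 with the Lgr5 probe used, and its mean was likewise lower in RG@M-γ-CD (log2 difference -0.62). Under the grouping of the heat map the 2 probes went opposite ways. The second probe was higher in arrays 6, 7 and 8 (log2 difference 0.29) and the probe used was lower there (-1.30). The second Rnf43 probe was well above background on 4 of 6 arrays and was not tested, and the second Ascl2 probe was well above background on 0 of 6. The third Smoc2 probe, A_55_P2730456, differed by 0.04 between the groups, in the opposite direction to the Smoc2 probe used.

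Under the grouping of the heat map all 10 members had a lower mean in arrays 6, 7 and 8, against 63.8% of all genes. No member passed the adjusted threshold, as against 0.0259% of all genes. At an unadjusted p of 0.05 from limma 4 of 10 members were called in either direction, against 16.5% of all genes, and all 4 were lower in arrays 6, 7 and 8, against 8.79%. They were Lgr5, Smoc2, Sox9 and Znrf3. The median log2 difference was -0.597 over the members and -0.116 over all genes. Arrays 6, 7 and 8 lay all below arrays 5, 10 and 11 for Lgr5, Smoc2, Znrf3, Nkd1 and Sox9, 5 of 10 members, a pattern of 18.4% of all genes. The margin was narrow for Lgr5 (2.90 on array 8 against 2.94 on array 10) and Nkd1 (5.14 against 5.16). For Znrf3 arrays 8 and 11 were equal as rounded (1.24).

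The mean of Lgr5 over arrays 6, 7 and 8 was 2.07 ± 0.83 (SD, n = 3), and over the other arrays it was 3.38 ± 0.43 (SD, n = 3), a log2 difference of -1.30 (standard error 0.44, adjusted p = 0.297 from limma). Smoc2 differed by -0.94 (standard error 0.29), Znrf3 by -0.65 (standard error 0.24) and Sox9 by -0.49 (standard error 0.16), with the same adjusted p of 0.297 from limma. Nkd1 differed by -0.81 (standard error 0.37) and Ascl2 by -0.12 (standard error 0.44). This grouping moves RG@M-γ-CD replicate 1, the highest array for most members, to the side of PBS replicates 2 and 3.

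**Figure D2:**
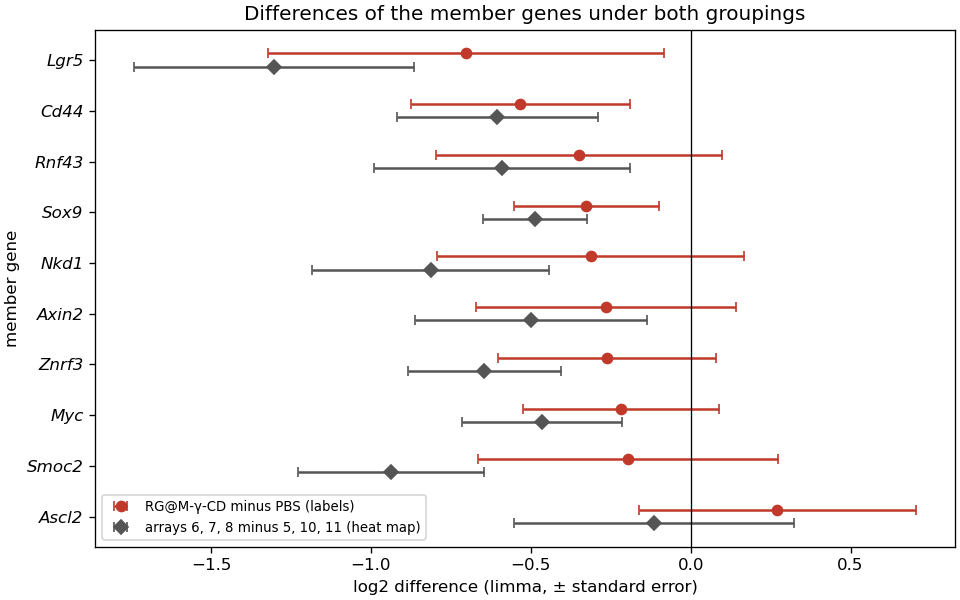
Log2 difference of each member (horizontal axis, limma estimate ± standard error) by the labels (red circles) and under the grouping of the heat map (grey diamonds), with 0 as no difference. By the labels 9 of the 10 circles lie left of 0 and Ascl2 lies right of it at 0.27, while all 10 diamonds lie left of 0, from -1.30 for Lgr5 to -0.12 for Ascl2.

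The labelled differences turned on single RG@M-γ-CD samples. Without RG@M-γ-CD replicate 1 all 10 members had a lower mean in RG@M-γ-CD (54.8% of all genes) and 6 of them were lower at an unadjusted p of 0.05 from limma (5.43% of all genes), namely Lgr5, Znrf3, Sox9, Cd44, Nkd1 and Rnf43. None passed the adjusted threshold, which 1.06% of all genes then did. Lgr5 then differed by -1.42 (adjusted p = 0.113 from limma). Replicate 1 was the highest RG@M-γ-CD sample for every member, so leaving it out had to lower each mean, and these p-values are a description. The members also moved together over the arrays, so their count is not one of independent genes. Without RG@M-γ-CD replicate 2, 4 of 10 members had a lower mean (40.2% of all genes, with 0% past the adjusted threshold), the median over the members turned to 0.104 and Ascl2 differed by 0.77. Lgr5, Znrf3, Sox9 and Cd44 kept a lower mean in both cases.

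**Figure D3:**
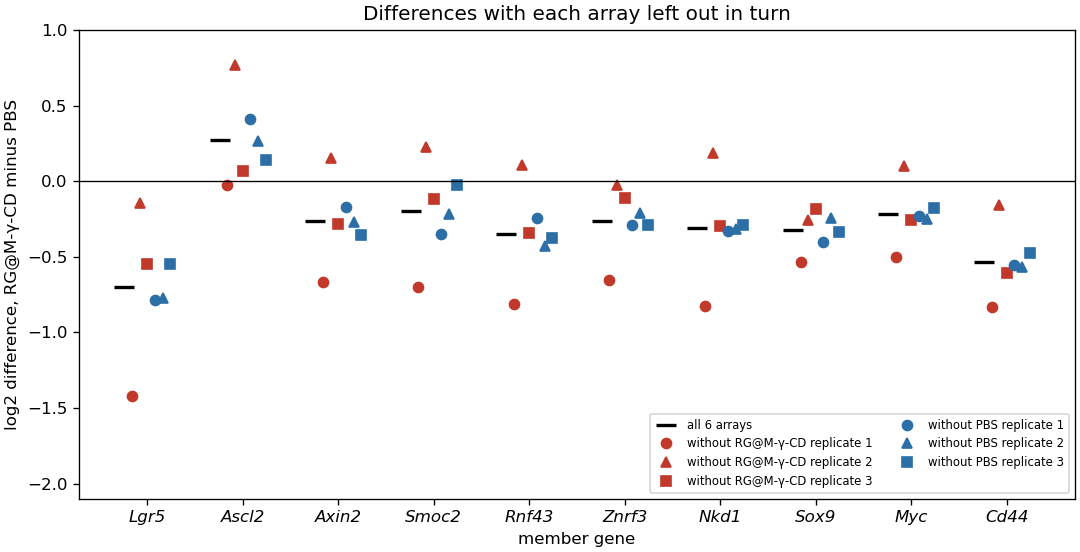
Log2 difference of each member, RG@M-γ-CD minus PBS (vertical axis), with all 6 arrays (black bars) and with 1 array left out (red for RG@M-γ-CD, blue for PBS, with circles, triangles and squares for replicates 1, 2 and 3). The red circles, without RG@M-γ-CD replicate 1, lie lowest for every member and the red triangles, without replicate 2, lie highest for all but Sox9, where leaving out replicate 3 gives the highest value.

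The summed levels of some other cell types also set RG@M-γ-CD replicate 1 apart. The 6 smooth muscle markers (Acta2, Myh11, Des, Tagln, Cnn1 and Actg2) were at their lowest in RG@M-γ-CD replicate 1 in 6 of 6 cases (share of all genes not counted). Their summed level, on a linear scale relative to the 75th percentile, was 97.6, 636 and 769 in RG@M-γ-CD replicates 1, 2 and 3 and 188 to 220 in the PBS samples. The highest muscle levels and the lowest Lgr5 levels thus fell in RG@M-γ-CD replicates 2 and 3. All 6 markers had a higher mean in RG@M-γ-CD by the labels (median log2 difference 0.902, 0 of 6 called in limma), with Myh11, the myosin of smooth muscle, furthest from 0 at 1.05 (standard error 0.85). Under the grouping of the heat map 6 of 6 were higher in arrays 6, 7 and 8 at an unadjusted p of 0.05 (7.76% of all genes) and 0 of 6 past the adjusted threshold. Lgr5 correlated at -0.915 with the log2 of this sum over the 6 arrays, and the part of muscle tissue in the members' spread was not tested.

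The 8 epithelial markers, which define the tissue, were all well above background, and their summed level was 914 to 1110 in the RG@M-γ-CD samples and 876 to 1240 in the PBS samples, with a median log2 difference of 0.02 and Krt18 furthest from 0 at -0.25 (standard error 0.19). Under the grouping of the heat map 8 of 8 were lower in arrays 6, 7 and 8 (63.8% of all genes), with a median of -0.235, and with the slide row as a covariate the median by the labels was 0.337. The 7 goblet cell markers were at their lowest in RG@M-γ-CD replicate 1 in 7 of 7 cases (share of all genes not counted). Their sums were 550 to 1710 in RG@M-γ-CD and 902 to 1840 in PBS, and Fcgbp, a mucus protein, differed by -0.61 (standard error 0.87). Markers of differentiated colonocytes summed to 223 to 593 in RG@M-γ-CD and 204 to 477 in PBS. Replicate 1 of RG@M-γ-CD was the lowest of the 6 arrays for 4 of the 8 and the highest for 1 (shares of all genes not counted). Car4, a carbonic anhydrase of the brush border, had log2 levels of -3.39, 1.15 and 0.85 in the RG@M-γ-CD samples. Its levels were -0.61, 0.16 and 1.46 in the PBS samples, a log2 difference of -0.80 (standard error 1.25). All 7 immune cell markers had a lower mean in RG@M-γ-CD (52.8% of all genes, median of the list -0.531), with Lyz2, lysozyme of macrophages, at -0.82 (standard error 0.41). Their sums were 160, 74.5 and 82.8 in RG@M-γ-CD replicates 1, 2 and 3 and 158 to 173 in PBS, most of it from Lyz2. The sum of replicate 1 thus lay within the PBS range, but the single markers did not all follow the sum. Replicate 2 of RG@M-γ-CD was the lowest array for 4 of the 7 and replicate 1 for 1 (shares of all genes not counted). Fibroblast markers summed to 87.6 to 150 against 115 to 121, and Lum differed by 0.87 (standard error 0.71). No marker on these lists was called in limma by the labels, and their part in the members' values was not tested.

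Squamous epithelium markers had 4 of 8 genes tested, with sums of 11.9 to 22.1 in RG@M-γ-CD and 20.3 to 26.9 in PBS, and Krt6a differed by -0.73 (standard error 0.19, adjusted p = 1 from limma). Of the 5 posterior Hox genes, which mark the distal end of the gut, Hoxd11, Hoxd12 and Hoxd13 lay all higher in arrays 6, 7 and 8, whereas Hoxa13 (-0.05) and Hoxb13 (-0.07) overlapped between the 2 sets of arrays. Hoxd13 had log2 levels of -3.77, 3.20 and 2.33 in the RG@M-γ-CD samples and 3.35, -0.09 and -2.89 in the PBS samples. Hoxd11 and Hoxd12 were not well above background on arrays 5, 10 and 11 and entered the fit only through the arrays where they were high, at least 2.9-fold for Hoxd11 and at least 28.2-fold for Hoxd12, and no test is drawn from them. The 3 Hox genes tested by the labels summed to 93.5 to 108 in RG@M-γ-CD and 80 to 113 in PBS, most of it from Hoxb13. The position of the tissue along the colon is not given in the labels, and its part in the members' lower values on arrays 6, 7 and 8 was not tested. Of 6 exocrine pancreas genes 2 were tested by the labels, with sums of 64.8 to 128 in RG@M-γ-CD and 72 to 110 in PBS, nearly all of it from Cela1. The elastase gene Cela1 differed by 0.17 (standard error 0.31). The digestive protease gene Prss2, not well above background on any RG@M-γ-CD array and tested only through the PBS samples, was at least 3.43-fold higher in PBS (adjusted p = 1 from limma).

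The other genes of the pathway were described by lists of its parts. Of 12 other Wnt targets, 10 had a lower mean in RG@M-γ-CD by the labels and 0 of 12 passed the test. Their median log2 difference was -0.458, and 8 of the 12 had RG@M-γ-CD replicate 1 highest and replicate 2 lowest, as did 8 of the 10 members. Mmp7, a matrix protease of colon tumor cells, had log2 levels of 7.64, 4.65 and 6.50 in the RG@M-γ-CD samples and 7.04, 7.50 and 7.74 in the PBS samples, a log2 difference of -1.16 (standard error 0.72, adjusted p = 1 from limma). The transcription factor gene Sp5 spanned 12.8-fold, from 0.85 in RG@M-γ-CD replicate 2 to 4.53 in replicate 1. The inhibitor gene Notum had log2 levels of 5.98, 3.66 and 4.88 against 4.98, 5.04 and 5.03.

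Under the grouping of the heat map 4 of these 12 targets lay below an unadjusted p of 0.05, against 16.5% of all genes. Mmp7 (-1.56, standard error 0.58), Tnfrsf19 (-1.40, standard error 0.35), which encodes a receptor of stem cells, and Ephb2 (-0.41, standard error 0.12), which encodes a receptor that positions cells in the crypt, were lower in arrays 6, 7 and 8. Nkd2, the relative of Nkd1, was higher there (0.74, standard error 0.20). None of the 4 passed the adjusted threshold (adjusted p = 0.297 from limma for each).

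**Figure D4:**
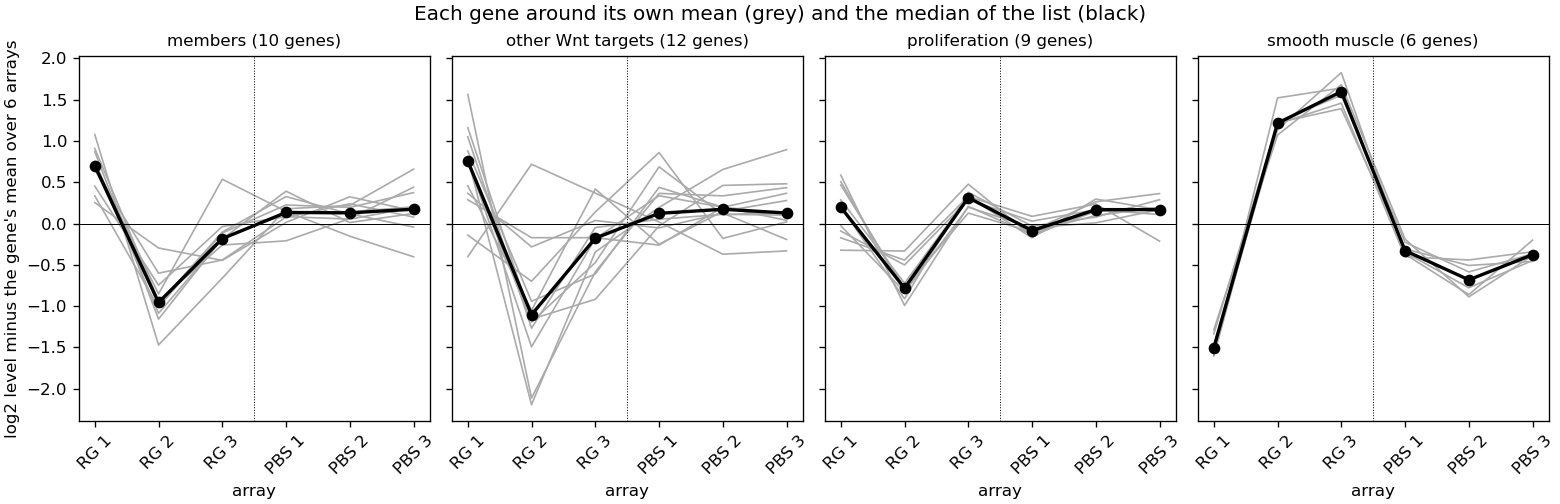
Log2 level of each gene minus its own mean over the 6 arrays (vertical axis) on each array (RG 1 to 3, RG@M-γ-CD replicates; PBS 1 to 3), with grey lines for single genes and a black line for the median of the list; lines only join the values of a gene. The medians of the members and of the other Wnt targets are highest in RG@M-γ-CD replicate 1 and lowest in replicate 2, an order shown by 8 of the 10 members and 8 of the 12 targets, and all 6 smooth muscle markers are lowest in replicate 1.

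Of the 19 Wnt ligand genes 9 were tested, 6 with a lower and 3 with a higher mean in RG@M-γ-CD (median -0.328, 0 called). Wnt3 had log2 levels of -0.79, -3.25 and -3.33 in the RG@M-γ-CD samples and -1.66, -1.91 and -1.27 in the PBS samples, a difference of -0.84 (standard error 0.69) by the labels and of -1.43 (standard error 0.51) under the grouping of the heat map. Wnt5a, a ligand that mainly signals without β-catenin, differed by -0.41 (standard error 0.56) by the labels and by -1.25 (standard error 0.30) under the other grouping. All 4 tested R-spondin and LGR genes had a higher mean in RG@M-γ-CD (median 0.732, 0 called). Rspo3, an R-spondin made by stromal cells, had log2 levels of -2.32, 0.20 and 0.52 in the RG@M-γ-CD samples and -1.42, -1.66 and -1.61 in the PBS samples, a difference of 1.03 (standard error 0.72) by the labels. RG@M-γ-CD replicate 1, the highest array for Lgr5, was thus the lowest for Rspo3.

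Of 12 Wnt receptor genes, 4 had a lower and 8 a higher mean in RG@M-γ-CD (median 0.03, 0 called). The receptor gene Fzd3 was the only list gene of the pathway at an unadjusted p of 0.05 by the labels, with log2 levels of -3.38, -4.53 and -3.57 in the RG@M-γ-CD samples and -2.96, -3.09 and -3.01 in the PBS samples (difference -0.81, standard error 0.31, adjusted p = 1 from limma). Fzd3 was not well above background on 1 of its 6 arrays and so entered the fit through 1 group only, and no test is drawn from it. The receptor genes Fzd1 (-0.66, standard error 0.16) and Fzd9 (-1.02, standard error 0.33) were lower in arrays 6, 7 and 8 at an unadjusted p of 0.05, and Rspo3 was higher (1.63, standard error 0.52).

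The 13 transducer and destruction complex genes had a median of -0.05, with 9 lower, 4 higher and 0 called. Btrc, which encodes the ligase adaptor for β-catenin, was furthest from 0 at 0.36 (standard error 0.20), and Ctnnb1, the gene of β-catenin, had log2 levels of 5.20, 4.22 and 4.92 against 4.72, 4.88 and 4.93. Tnks2, a tankyrase that destabilizes AXIN, differed by -0.46 (standard error 0.16) under the grouping of the heat map. Of the 7 tested TCF factor and coactivator genes 4 were lower and 3 higher (median -0.07, 0 called), with Lef1 at -0.56 (standard error 0.44).

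Of 9 tested genes of other stem and crypt base cells, 6 were lower and 3 higher (median -0.08, 0 called), with Lrig1, an inhibitor of growth factor receptors, at 0.29 (standard error 0.19). The stem cell gene Prom1 (-0.82, standard error 0.33) and the cell cycle kinase gene Cdk6 (-0.41, standard error 0.15) were lower in arrays 6, 7 and 8 at an unadjusted p of 0.05. Olfm4, a marker of stem cells in the small intestine, was well above background on 0 of 6 arrays. All 9 proliferation genes had a lower mean in RG@M-γ-CD (52.8% of all genes, median of the list -0.131, 0 called). RG@M-γ-CD replicate 2 was lowest in 9 of 9 and replicate 1 highest in 3 of 9 (shares of all genes not counted). Ccnb1, a cyclin of mitosis, was furthest from 0 at -0.36 (standard error 0.32).

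Promoters were read from RefSeq sequence (GRCm38.p6, 250 bases before to 50 bases after each gene start), which matched Ascl2, Axin2, Cd44, Nkd1 and Rnf43, with 2 promoters for Rnf43. Lgr5, Smoc2, Znrf3, Sox9 and Myc were not matched. The letters CTTTGAT and CTTTGAA, a core recognized by TCF factors, were searched on both strands. They were found in 0 of these 6 promoters and in 8.65% of the 32851 promoters of the table, which says only that these letters are not in these windows.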

How the data were processed

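Cy3-labelled RNA of 6 samples of colon tissue carrying tumors was hybridized to one-color Agilent mouse arrays. The deposited intensity of each spot had been corrected for background and detrended by the authors with Agilent Feature Extraction 10.7.1.1 (per the labels), without normalization between arrays. The authors also deposited log2 values per probe, which served only as an alternative. How these were normalized is not given in the sources used here. The members' differences from them were nearly those after quantile normalization (Lgr5 -0.704 in both), so these are nearly the same alternative.

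Intensities were processed in R 4.3.3 (package data.table, version 1.17.8). After removal of controls and of spots that the scanner software had marked as outliers, spots of a probe were averaged and the 75th percentile of the gene probes was subtracted on the log2 scale. Symbols came from RefSeq by accession for 32994 of the 56605 gene probes, and the scanner software's own name was used for the other 23611. Only probes well above background throughout a group (3 arrays) entered the fit, and the brightest of them stood for its gene. Groups followed the labels and were compared with limma 3.58.1 (lmFit, eBayes), Benjamini-Hochberg adjustment over 19087 genes and a threshold of 0.05 (19295 genes under the grouping of the heat map). The fit was tested on simulated data. A fold written as "at least" sets the mean of the brighter side against the dimmer side with each dim value raised, where lower, to the least bright signal well above background on its array. Signal over background and the number of arrays limit the precision.

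The members and lists were chosen with earlier results of these data known, and the lists' counts support nothing on their own. All members were named, with the pathway genes at an unadjusted p of 0.05 under either grouping or otherwise furthest from 0 in their list, the summed level and the gene furthest from 0 of each marker list, and the 5 genes most like Lgr5. Sp5, Notum, Ctnnb1, Olfm4, Cela1, Hoxa13, Hoxb13, Hoxd11 and Hoxd12 were named after their values were seen. Alternatives changed 1 choice each. They covered normalization (quantile, or the authors' values), background (normexp, offset 50), the filter (none, or well above background on all 6 arrays), the choice of probe (mean over probes) and of spots (outliers kept), the model (replicate number as a block, slide row as a covariate, the methods' t-test), the grouping (the heat map's) and the samples (1 array omitted at a time).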

Additional observations from a re-analysis of the deposited data

How the results depend on the processing

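The number of members called was 0 under every alternative. The direction by the labels was the same in 161 of 170 comparisons of a member under an alternative. No direction turned under quantile normalization, normexp background correction, the authors' table, the mean of probes or outlier spots kept. None could turn under either filter, which kept the same member probes, or under the methods' t-test or the replicate block, which keep the same mean differences. The count of 161 includes these settings, which therefore say nothing about the directions. The methods' t-test left 0 genes past the adjusted threshold and counted 45 genes, 0 of them members, at a fold change of 2 and an unadjusted p of 0.05. With the slide row as a covariate Ascl2 turned to -0.00904 and Smoc2 to 0.109, while the median of all genes moved to 0.0972. With the arrays grouped as in the heat map, 5 genes were called among all tested, Ascl2 turned to -0.115 and the median of all genes was -0.116. When 1 array at a time was omitted, the members with a lower mean numbered 4 to 10, their median difference ran from -0.683 to 0.104, and the genes called among all tested ran from 0 to 206. The differences then ran from -0.0232 to 0.767 for Ascl2, from -0.668 to 0.153 for Axin2, from -0.698 to 0.225 for Smoc2, from -0.812 to 0.108 for Rnf43, from -0.825 to 0.188 for Nkd1 and from -0.5 to 0.0998 for Myc. The ends of the range of every member but Sox9 came from leaving out RG@M-γ-CD replicates 1 and 2. The upper end for Sox9, -0.185, came from leaving out RG@M-γ-CD replicate 3. The labels do not say that the replicate numbers pair the samples. The deviations of same-numbered samples correlated at -0.25, -0.233 and 0.136, and those of differently numbered samples at -0.331 to 0.413. With 3 samples per group these values cannot decide whether the numbers mark pairs. The replicate block left the genes called at 0, while the members' median of -0.289 is fixed under it by the balanced design. With 3 arrays per group, the 95% intervals of the members' differences reach past 0 on both sides, and past 1 log2 unit on one side for all members but Sox9 and Myc.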
